A study of Mus musculus with 13 samples.

Results

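The bone marrow clones of MLL-AF9 leukaemia were compared between NSG and Ptprca host mice. A clone is read here as a DNA barcode. Followed were the barcodes that reached 10 CPM (reads of a barcode scaled to a library total of 1000000) in 2 or more of 6 bone marrow libraries, 3 from Ptprca mice and 3 from NSG mice. There were 364 such barcodes, which is 14.5% of the 2505 in the deposited table and 54.5% of the 668 seen above 0 in at least 1 bone marrow library. The rule counted libraries of either strain alike and did not use the difference between them. At its edge, GFP_Barcode_99059 was kept with a second-highest value of 10.2 CPM and GFP_Barcode_63118 was left out with 9.79 CPM, although it reached 2967 CPM in Ptprca mouse 1. Barcodes are named by their number in the table, since the files used here give no barcode sequence.

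In DNA barcoding, a library of lentiviruses writes a different short sequence into the genome of each transduced cell, and all descendants of that cell inherit it. The share of barcode reads that carry one sequence therefore follows the size of that clone within the sample. It is a share of the leukaemia that was sampled: growth of 1 clone lowers the share of the others, and a larger clone cannot be told apart from a shrinking remainder. MLL-AF9 is a fusion of the histone methyltransferase gene MLL with AF9 that turns haematopoietic progenitors into a transplantable acute myeloid leukaemia. The c-Kit positive progenitors were grown in culture with IL-3, IL-6 and SCF and transduced with the SPLINTR barcode library. The cells were then transplanted into mice.

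Ptprca mice are C57BL/6 animals that carry the Ptprca form of CD45, the antigen on all white blood cells, so host and donor cells can be told apart, and their immune system is intact. NSG mice lack T, B and NK cells but keep macrophages and other myeloid cells, and they also differ from C57BL/6 in genetic background, so missing lymphocytes and strain background cannot be told apart in this design. Mice 1, 2 and 3 were Ptprca and mice 4, 5 and 6 were NSG. Each gave bone marrow and spleen at disease. A single baseline library gives the barcodes before disease. No source used here states the age, sex or conditioning of the hosts. The animal is the replicate, and the p-values weigh the strain difference against the spread between animals. For single barcodes, limma takes part of that spread from other barcodes of similar abundance. No test used the baseline, and shares relative to it rest on that 1 library.

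The 6 bone marrow libraries held 2484519 to 5201858 reads, each split over 2 technical repeats whose CPM were averaged. The smallest share taken as measurable, 3 reads of the shallower repeat, was 0.613 to 0.735 CPM in 5 of them and 8.8 CPM in Ptprca mouse 3, whose shallower repeat had 170453 reads. Low values and zeros of that mouse are therefore less sure than those of the others. Such floors cover counting error only, since reads after PCR are not independent cells. Between repeats, the log2 ratio of barcodes at 100 to 1000 CPM had an SD of 0.351 to 0.585. Between mice of a strain the median SD of such barcodes was 4.44 on the log2 scale in Ptprca (93 barcodes) and 3.38 in NSG (143 barcodes), above the repeat SD. The repeat SD leaves out barcodes read in only 1 repeat, so the spreads do not cover like sets and their ratio is not given. The members made up 96.8% to 99.1% of each library. Ptprca mouse 1 and NSG mouse 5 shared 9 barcodes found at 10 CPM or more in no other bone marrow, against 0 to 4 for the other pairs across strains, so the main results were also computed without this pair of mice.

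The NSG bone marrows held more barcodes, but fewer of them were large. Barcodes that reached 10 CPM numbered 255, 241 and 230 in Ptprca mice 1 to 3 and 306, 340 and 299 in NSG mice 4 to 6. The number at 1% of the library or more went the other way, with 27, 32 and 31 in Ptprca mice and 19, 17 and 17 in NSG mice. Neither pair of ranges overlapped. The difference in the first was 73 barcodes (242 ± 12.5 against 315 ± 21.9, SD, n = 3 each) and in the second -12.3 barcodes (30 ± 2.65 against 17.7 ± 1.15).

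A single leading barcode held far more of the NSG marrow. The largest barcode held 5.94%, 7.29% and 8.07% of the Ptprca marrows and 23.4%, 18.7% and 17.9% of the NSG marrows. The 10 largest barcodes together held 40.0%, 39.1% and 40.3% in Ptprca and 55.5%, 59.3% and 60.9% in NSG. All 3 NSG values lay above all Ptprca values in both measures. Evenness was summarised by the Shannon entropy, the sum of each share times its negative natural logarithm. The number of equally large clones with the same entropy is called the effective number of barcodes. It averaged 66.0 ± 2.65 over the Ptprca marrows, against 42.2 ± 1.35 over the NSG marrows. Barcodes under 0.1% held slightly more of the NSG marrow as well, at 5.19% ± 0.536 against 3.53% ± 0.558.

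The middle of the distribution overlapped between the strains at these limits. Barcodes between 0.1% and 1% held 26.3%, 24.5% and 24.7% of the Ptprca marrows and 27.2%, 26.3% and 25% of the NSG marrows, and the groups overlapped. With the upper limit at 0.5% the strains separated (12.2% and 15.4%), as they did in the other direction at 2% (48.2% and 37.4%) and without the most abundant NSG barcode (25% and 28.4%), each with an exact permutation p of 0.1. The groups also overlapped in the summed share of barcodes found at 10 CPM or more in all 6 marrows, which was 75.9% ± 3.71 in Ptprca and 81.3% ± 3.02 in NSG, but not when presence was set at 1 CPM (81.1% and 87.3%, exact permutation p = 0.1). Of the 8 measures compared, the 6 without overlap had a two-sided exact permutation p of 0.1, the smallest that 3 mice against 3 allow, and an adjusted p of 0.133. The other 2 had an exact permutation p of 0.2. None could therefore pass 0.05.

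Part of the gap between the strains was carried by 1 barcode, GFP_Barcode_52804. With it left out and the shares recomputed, the largest barcode averaged 7.12% in Ptprca and 13.9% in NSG (exact permutation p = 0.3), and the effective number of barcodes was 65.5 and 58.3 (difference -7.17, exact permutation p = 0.3). The 10 largest still held 39.9% and 50.3% without overlap. The number at 1% or more still differed by -8 barcodes.

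Across the 364 barcodes, limma on log2(CPM + 1) with Benjamini-Hochberg adjustment called 1 barcode higher in NSG bone marrow (0.275% of those tested) and 3 lower (0.824%). The count and its balance depended on the settings: it was 13 higher and 7 lower among barcodes at 10 CPM in at least 3 libraries, 7 and 6 with a filter of 100 CPM, 12 and 5 without a trend in the prior, and 1 to 6 in all with 1 mouse left out. At an unadjusted p under 0.05 there were 59, of which 37 were higher and 22 lower in NSG. The mean log2 difference was positive for 228 barcodes and negative for 136, with a median of 0.96. That median depends on the scale. It was 0.06 when each library was centred on its own geometric mean, a shift of -0.90, and 1.27 when the most abundant NSG barcode was removed from the totals. Differences of single barcodes below are on the CPM scale and should be read against the median of 0.96.

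GFP_Barcode_52804 was the leading clone of every NSG mouse and a minor clone of every Ptprca mouse. It held 0.262%, 0.269% and 0.266% of the Ptprca marrows. It held 23.4%, 18.7% and 17.9% of the NSG marrows. The 3 Ptprca values were almost equal and the lowest NSG value was far above all of them, a 75.3-fold difference in mean share (0.266% ± 0.00355 against 20.0% ± 3.01, SD, n = 3 each). The log2 difference was 6.22 (SE 0.39, limma adjusted p = 0.000172, or 0.0421 without a trend in the prior). At baseline it held 0.056%, so its share was 4.74 times its baseline share in Ptprca and 357 times in NSG. It was called when any 1 mouse was left out, but not without mice 1 and 5 together (limma adjusted p = 0.0954).

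GFP_Barcode_44375 was the second largest Ptprca clone by mean share and a small one in NSG. It held 3.32%, 4.37% and 3.67% in Ptprca and 0.0496%, 0.0706% and 0.0172% in NSG, with no overlap and an 82.7-fold difference in mean. The log2 difference was -6.58 (SE 0.82, limma adjusted p = 0.0109). With a baseline share of 0.982%, it stood at 3.86 times baseline in Ptprca and 0.0467 times in NSG, that is, on opposite sides of where it started. The call was lost without Ptprca mouse 2 (limma adjusted p = 0.111), Ptprca mouse 3 (0.0554) or NSG mouse 4 (0.0574), and without mice 1 and 5 together (0.223).

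GFP_Barcode_122306 was lower in NSG by a similar factor from a much smaller start. It held 1.27%, 1.24% and 1.05% in Ptprca and 0.0102%, 0.0189% and 0.00579% in NSG, a 102-fold difference in mean. The log2 difference was -6.82 (SE 1.04, limma adjusted p = 0.0274). Its baseline share was 0.00787%, which it exceeded 151-fold in Ptprca and 1.48-fold in NSG. The call was lost without any 1 of the 6 mice, with limma adjusted p from 0.075 to 0.135, with mouse as a random block over 12 libraries (0.0636), without the most abundant NSG barcode (0.0635) and without mice 1 and 5 (0.223).

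GFP_Barcode_24738 was the third barcode called lower in NSG. It held 1.61%, 3.38% and 2.18% in Ptprca and 0.139%, 0.140% and 0.104% in NSG, an 18.7-fold difference in mean. The NSG values were almost equal to each other, while the Ptprca values differed more among themselves and all lay above them. The log2 difference was -4.17 (SE 0.66, limma adjusted p = 0.0274). From 0.389% at baseline it stood at 6.14 times in Ptprca and 0.328 times in NSG. This call held only without Ptprca mouse 1 among the single leave-outs, with limma adjusted p from 0.0911 to 0.135 in the others. It was also lost with mouse as a random block (0.0636), without a trend (0.117), without a filter (0.0705), without the most abundant NSG barcode (0.0769) and without mice 1 and 5 (0.223).

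Many more barcodes separated the strains without passing the adjusted test. In 39 barcodes all NSG marrows lay above all Ptprca marrows (10.7% of the 364), and in 28 all lay below (7.69%). The 4 called barcodes were among these 67. Of the 39, 20 reached 10 CPM only in NSG marrows, and of the 28, 7 only in Ptprca marrows. Those 20 and 7 are members solely through the strain where they are high. For 3 mice against 3, full separation has an exact permutation p of 0.1. Some barcodes therefore separate by chance, beside the 18.4% seen here. The higher strain's mean was 1000 CPM or more in 12 of the 39 that were above and in 23 of the 28 that were below.

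GFP_Barcode_28531 was nearly missing from Ptprca bone marrow although it was a large baseline clone. It was at 0.000349%, 0% and 0% in Ptprca and at 0.0239%, 0.611% and 1.42% in NSG. The NSG values differed among themselves by far more than those of the called clones, and the log2 difference of 10.70 (SE 2.25) had a limma adjusted p of 0.0619. The value in Ptprca mouse 1 came from 10 and 8 reads in the repeats. At 1.03% of the baseline, it stood at 0.664 times baseline in NSG and 0.000113 times in Ptprca.

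GFP_Barcode_7462 was not detected in any Ptprca marrow. It was at 0.216%, 0.015% and 0.0842% in NSG marrow, at least 308-fold higher than the mean Ptprca floor of 3 reads per library. The limma adjusted p was 0.0648. GFP_Barcode_56798 was at 0.00105%, 0.000309% and 0.0109% in Ptprca and 0.219%, 0.0953% and 0.182% in NSG, a 40.6-fold difference with a limma adjusted p of 0.121. GFP_Barcode_9544 was at 0.00389%, 0.00104% and 0% in Ptprca and 0.00912%, 0.0296% and 0.449% in NSG (limma adjusted p = 0.294). In that last barcode NSG mouse 6 alone carried most of the 98.9-fold difference in mean.

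The barcodes at 0 in all marrows of 1 strain were mostly missing from Ptprca. There were 24 members at 0 in all 3 Ptprca marrows and 2 at 0 in all 3 NSG marrows. Such barcodes are members solely through the other strain, and NSG marrows held more barcodes at 10 CPM or more (mean 315 against 242). Zeros in Ptprca mouse 3 are less sure, with a floor of 8.8 CPM. The counts therefore describe the members and do not measure loss from a strain. Of the 24, 5 were at 10 CPM or more in every NSG marrow, and these are named because their values were seen: GFP_Barcode_7462, GFP_Barcode_21429, GFP_Barcode_23204, GFP_Barcode_22553 and GFP_Barcode_2735. GFP_Barcode_21429 was at 566, 423 and 506 CPM in the NSG marrows, at least 146-fold above the Ptprca floor, with a limma adjusted p of 0.0619. All 5 were present at baseline.

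On the Ptprca side, GFP_Barcode_1218 was a large clone just short of a call. It held 4.25%, 1.22% and 1.19% in Ptprca and 0.0938%, 0.0561% and 0.00869% in NSG, a 41.9-fold difference in mean. The log2 difference was -5.67 (SE 1.17, limma adjusted p = 0.0619). It started at 0.16% and stood at 13.8 times baseline in Ptprca and 0.33 times in NSG, which is the same opposite placement about the baseline as GFP_Barcode_44375 and GFP_Barcode_24738.

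GFP_Barcode_81719 was at 0.00497%, 1.30% and 0.685% in Ptprca and 0.000322%, 0% and 0% in NSG. Its log2 difference was -10.00 (SE 2.63, limma adjusted p = 0.108), and Ptprca mouse 1 was low among the Ptprca mice. GFP_Barcode_25810 was at 0.322%, 0.0156% and 0.579% in Ptprca and 0%, 0.000843% and 0% in NSG (limma adjusted p = 0.0944). GFP_Barcode_12922 was at 0.0424%, 0.548% and 0.136% in Ptprca and 0.000696%, 0.000111% and 0.0118% in NSG (limma adjusted p = 0.165). These 3 separated the strains in every mouse, but each varied more than 10-fold among the Ptprca mice.

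Some of the largest clones were large in both hosts. The barcodes at 1% or more in all 6 bone marrows were GFP_Barcode_69276, GFP_Barcode_22403, GFP_Barcode_98919 and GFP_Barcode_18532. GFP_Barcode_69276 held 2.73%, 7.29% and 8.07% in Ptprca and 4.28%, 6.45% and 6.39% in NSG. Its log2 difference was 0.04 with an unadjusted 95% confidence interval from -1.08 to 1.17. A difference within that range in either direction is compatible with the 3 mice per strain. It was at 0.25% at baseline and stood at 24.1 and 22.8 times that share in Ptprca and NSG.

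On the CPM scale the other 3 had higher means in NSG, with overlapping or close values, and GFP_Barcode_98919 turned to -0.25 on centred log-ratios. GFP_Barcode_22403 held 4.01%, 2.35% and 2.45% in Ptprca and 4.34%, 4.15% and 12.9% in NSG (log2 difference 1.11, interval -0.13 to 2.35). GFP_Barcode_98919 held 1.17%, 4.28% and 2.76% in Ptprca and 4.78%, 2.45% and 4.58% in NSG (log2 difference 0.65, interval -0.70 to 2.00). GFP_Barcode_18532 held 2.63%, 2.82% and 1.2% in Ptprca and 4.13%, 15.8% and 2.83% in NSG (log2 difference 1.46, interval -0.18 to 3.10). In GFP_Barcode_22403 and GFP_Barcode_18532 every NSG value exceeded every Ptprca value, but 1 NSG mouse was far above the other NSG mice in each: mouse 6 for the former and mouse 5 for the latter.

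GFP_Barcode_3138 and GFP_Barcode_52357 were also among the 10 largest of both strains by mean share. GFP_Barcode_3138 held 2.21%, 5.62% and 0.307% in Ptprca and 0.729%, 2.33% and 4.06% in NSG (log2 difference 0.29, interval -2.35 to 2.92). GFP_Barcode_52357 held 5.94%, 0.658% and 1.32% in Ptprca and 2.14%, 1.75% and 3.20% in NSG (log2 difference 0.41, interval -1.49 to 2.30). Both ranges overlapped, and the intervals are wide because the clones differed several-fold among mice of the same strain. In all, 5 barcodes were among the 10 largest of both strains.

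Another 4 clones were among the 10 largest of 1 strain alone, with no call. GFP_Barcode_39453 held 2.04%, 1.12% and 7.47% in Ptprca and 1.19%, 0.869% and 0.845% in NSG (log2 difference -1.43, limma adjusted p = 0.378). GFP_Barcode_27920 held 0.0023%, 0.395% and 2.61% in Ptprca and 2.30%, 2.18% and 3.59% in NSG (log2 difference 4.28, limma adjusted p = 0.379). GFP_Barcode_44771 held 0.00444%, 1.59% and 0.895% in Ptprca and 4.93%, 1.10% and 0.808% in NSG, and GFP_Barcode_101924 held 0.81%, 1.11% and 0.0794% in Ptprca and 1.5%, 0.409% and 3.19% in NSG. In the last 3, 1 Ptprca mouse was more than 10-fold below the other Ptprca mice.

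Which clones led was more alike among NSG mice than among Ptprca mice. NSG mice shared 7, 7 and 8 of their 10 largest barcodes pair by pair, Ptprca mice shared 3, 2 and 3, and pairs across strains shared 3 to 5 (mean 3.67). Over all 364 barcodes the order was less clear, since the Pearson correlation of log2(CPM + 1) was 0.466 to 0.535 within Ptprca, 0.481 to 0.512 within NSG and 0.299 to 0.432 across strains. These are descriptions over barcodes that share the starting cells, and no test was made of them.

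A total of 72 barcodes reached 1% in at least 1 of the 6 marrows. Of these, 16 did so in both strains, 42 only in Ptprca and 14 only in NSG. In Ptprca, 58 barcodes reached 1% in some mouse, of which 38 did so in 1 mouse and 12 in all 3 (20.7%). In NSG, 30 did, of which 15 did so in 1 mouse and 7 in all 3 (23.3%). The share that recurred in all mice was thus close in both strains, and the larger number of Ptprca leaders lay mainly in clones large in a single animal. At 1% or more in all mice of 1 strain and in none of the other were 6 barcodes in Ptprca and 1 in NSG, GFP_Barcode_52804.

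The 72 barcodes that reached 1% in some marrow included all 4 called ones. Of these 72, 5 lay above all Ptprca marrows in NSG and 12 lay below. Of the 136 whose highest share was between 0.1% and 1%, 15 lay above and 12 below, and of the 156 that stayed under 0.1%, 19 lay above and 4 below. These classes were cut on the highest of the same 6 values, and more barcodes reached 1% only in Ptprca than only in NSG, so the counts describe the classes and are no evidence that clone size and direction are related.

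More members were found only in NSG marrows than only in Ptprca marrows at this depth. A barcode found in 1 strain alone is a member solely through that strain, and the NSG marrows held more barcodes that reached 10 CPM. At 10 CPM or more, 100 members were in all 6 marrows, 52 only in NSG marrows and 17 only in Ptprca marrows. Of the 52, 17 were in all 3 NSG mice, and of the 17, 6 were in all 3 Ptprca mice. Although more barcodes were found only in NSG, both sets were small in mass, holding 2.39% ± 1.21 of the NSG marrow and 2.22% ± 1.01 of the Ptprca marrow. The 16 barcodes in all Ptprca mice and 2 NSG mice held 5.74% ± 1.13 of the Ptprca marrow and 0.686% ± 0.29 of the NSG marrow.

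In each baseline class above 0, barcodes lay on either side. Of the 90 members at 1000 CPM or more at baseline, 13 lay above and 13 below without overlap (14.4% each), with a median log2 difference of 0.86. Of the 198 at 100 to 1000 CPM, 20 lay above and 11 below, with a median of 1.21, and of the 74 above 0 and up to 100 CPM, 6 lay above and 4 below, with a median of 0.53. Only 2 members were at 0 at baseline. The members smallest at baseline held 9.26% ± 0.835 of the Ptprca marrows and 3.98% ± 3.11 of the NSG marrows, where NSG mouse 5 had 7.57% and the other NSG mice 2.33% and 2.05%.

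The 3 largest baseline barcodes among the members were small in every marrow. GFP_Barcode_27492 held 5.29% at baseline, 0.263%, 0.0663% and 0.026% of the Ptprca marrows and 0.11%, 0.327% and 0.328% of the NSG marrows. GFP_Barcode_132107 held 4.68% at baseline, with means of 0.0924% ± 0.0834 in Ptprca and 0.248% ± 0.124 in NSG. GFP_Barcode_129 held 4.94% at baseline, 0.00123%, 0% and 0% of the Ptprca marrows and 0.0869%, 0.00698% and 0.017% of the NSG marrows (log2 difference 6.53, SE 2.22, limma adjusted p = 0.201). In NSG mouse 5 the reads of GFP_Barcode_129 came from 1 repeat alone, with 322 reads there and 0 in the other. All 3 were below baseline in both hosts.

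Some barcodes kept an almost fixed ratio to each other over all 6 marrows. Among 160 barcodes with a mean of 1000 CPM or more in either strain there were 12720 pairs, and in 3 of them the log2 ratio ranged over less than 0.5. GFP_Barcode_69276 was 7.09 to 8.56 times GFP_Barcode_7083 in the marrows, 5.71 to 9.08 times in the spleens and 9.07 times at baseline. GFP_Barcode_618 was 5.69 to 7.46 times GFP_Barcode_117016 in the marrows, 3.21 to 5.93 times in the spleens and 6.32 times at baseline. GFP_Barcode_618 itself held 5.92%, 0.676% and 0.571% of the Ptprca marrows and 0.156%, 2.06% and 1.74% of the NSG marrows, where 1 mouse of each strain stood apart (log2 difference -0.67, limma adjusted p = 0.845). In both pairs the baseline ratio was thus close to the ratios in the marrows of either host, while the spleen ratios of the second pair reached lower values, so the members of a pair do not count as separate observations. GFP_Barcode_2713 and GFP_Barcode_81016 had a ratio of 1.12 to 1.43 in the marrows but of 0.305 to 3.59 in the spleens.

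With a wider limit of 1 on the log2 range, chosen after the values were seen, 10 pairs over 18 barcodes qualified. One of them joins 2 of the called barcodes: GFP_Barcode_44375 was 2.61 to 4.88 times GFP_Barcode_122306 in the marrows. That ratio was 15.6 to 65.8 in the spleens and 125 at baseline, so this pair moved together between the marrows without being in constant proportion elsewhere. Another 2 pairs linked GFP_Barcode_57652, GFP_Barcode_15540 and GFP_Barcode_14177. GFP_Barcode_57652 was at 148, 164 and 67 CPM in the Ptprca marrows and at 5470, 4846 and 5011 CPM in the NSG marrows, a 40.4-fold difference in mean share (log2 difference 5.42, SE 1.11, limma adjusted p = 0.0619). The other two differed 37.5-fold and 46.3-fold, with limma adjusted p of 0.075 and 0.105, and all 3 were within a narrow range among NSG mice.

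In the spleens of the same mice, 14 of the 364 barcodes lay above without overlap in NSG (3.85%) and 41 lay below (11.3%). Of the 39 barcodes that lay above in bone marrow, 4 also lay above in spleen and 1 lay below. Of the 28 that lay below in bone marrow, 15 also lay below in spleen and 0 above. The spleen thus repeated the separation more often for barcodes lower in NSG (53.6%, beside 11.3% of all members) than for those higher (10.3%, beside 3.85%), a difference that was not tested. The NSG spleen libraries were the less even ones, with a repeat SD of 1.57 to 2.26 on the log2 scale against 0.301 to 0.390 in Ptprca spleens.

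GFP_Barcode_52804 held 70.7%, 23.7% and 52.0% of the NSG spleens and 0.317%, 0.184% and 0.361% of the Ptprca spleens, so it led there too. A clone that takes that much of a library lowers the CPM of all others in it. GFP_Barcode_44375 held 1.61%, 4.62% and 2.82% of the Ptprca spleens and 0.0919%, 0.088% and 0.0909% of the NSG spleens. GFP_Barcode_24738 held 0.513%, 1.46% and 0.756% against 0.0647%, 0.0901% and 0.151%. GFP_Barcode_122306 held 0.0245%, 0.127% and 0.0739% against 0.00188%, 0.00212% and 0.00581%. All 4 called barcodes were therefore separated without overlap, and in the same direction, in the spleen.

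The bone marrow separation of GFP_Barcode_57652 was not seen in the spleen. GFP_Barcode_57652 was at 672, 1249 and 201 CPM in the Ptprca spleens and at 779, 0 and 124 CPM in the NSG spleens, which overlap. In the NSG spleens only 59.8% to 73.8% of barcodes at 10 to 1000 CPM were in both repeats, so these values are unsure. Bone marrow and spleen thus differed for this barcode, whereas for the 4 called barcodes they placed the strains in the same order.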

How the data were processed

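Barcode DNA from sorted cells of 12 disease samples and 1 baseline was amplified by PCR in technical repeats, per the labels' protocols. The authors deposited 1 table of CPM per barcode and library, and each column sums to 1000000. Bowtie 1.2.2 and R 3.6 are named in the submitters' processing notes. Low values show that each CPM is the mean of 2 repeats of unequal depth, from which reads per repeat were recovered for depth, floors and repeat error. Because averaging weights repeats alike, no count model was used. A share in percent was computed from the deposited CPM.

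Members were tested with limma 3.58.1 (R 4.3.3, trended prior) on log2(CPM + 1), fitted to the 6 bone marrow libraries and adjusted over all 364 by Benjamini-Hochberg at 0.05. Pseudocount 1 shrinks differences of low barcodes. The 8 library measures were compared by a two-sided exact permutation test. For the effective number of barcodes, e was raised to the power of each library's Shannon entropy. Tables were made with Python 3.11.15, numpy 2.4.6 and pandas 2.3.3. The fit was also run on simulated data with normal noise around the observed means. That outcome is not given here, so it is no support for the calls.

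Named barcodes were the 10 largest per strain, the called ones, up to 5 per direction with the largest log2 difference among those without overlap and at 1000 CPM or more in the higher strain, those at 1% or more in all 6 marrows, the 3 largest at baseline, and partners in constant ratio. Others named were chosen after their values were seen. Members and lists were chosen with earlier results of these data known. Alternatives changed the pseudocount, filter, scaling, variance prior, mice included, and limits.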

Additional observations from a re-analysis of the deposited data

Results flagged for a closer look

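GFP_Barcode_75057 separated the strains in opposite directions in bone marrow and spleen. It was at 6.31, 58 and 6.7 CPM in the Ptprca marrows and at 287, 479 and 480 CPM in the NSG marrows, a log2 difference of 4.76 (SE 1.88, limma adjusted p = 0.285). In spleen it was at 11, 14.8 and 76.5 CPM in Ptprca and at 0, 0.312 and 0 CPM in NSG. The difference between the tissues was not tested, and this barcode was chosen after its values were seen.

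GFP_Barcode_14829 is outside the 364 barcodes because it was large in a single animal. It held 1.33% of the bone marrow of NSG mouse 4, while the next highest bone marrow held 5.87 CPM. Its baseline share was 0.00164%, and it was at 0 in the spleen of the same mouse.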

How the results depend on the processing

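With 4 barcodes called, the count was 20 with 10 CPM in at least 3 libraries (13 higher, 7 lower in NSG), 13 with a filter of 100 CPM (7 and 6), 17 without a trend in the limma prior (12 and 5, of which 3 of the 4), 1 without the most abundant NSG barcode (0 and 1), and 0 by limma without mice 1 and 5, where 55 had an unadjusted p under 0.05. It was 6 on centred log-ratios (1 and 5), 3 without a filter and 4 under the other filter, pseudocounts, robust prior and floor. The most abundant NSG barcode, GFP_Barcode_52804, was the 1 called higher, so it could not be called in the setting without it. Leaving out 1 mouse at a time gave 1 to 6. The strains share no mouse number, so no pairing across strains exists; with mouse as a random replicate block over 12 libraries 3 were called, 2 of them shared (correlation 0.469). Barcodes without overlap numbered 67, 94 to 106 with 1 mouse left out and 136 without mice 1 and 5, where fewer libraries must separate. The share between 0.1% and 1% became -10.7 percentage points with the limit at 2% (48.2% and 37.4%), since the class then includes larger clones; the other 7 measures kept direction under all alternatives.

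Differences that changed sign lay between -0.77 and 0.65 as reported. On centred log-ratios they were -0.85 for GFP_Barcode_69276, -0.86 for GFP_Barcode_7083, -0.25 for GFP_Barcode_98919, -0.61 for GFP_Barcode_3138 and -0.49 for GFP_Barcode_52357. Without mice 1 and 5 they were -0.55 for GFP_Barcode_69276 and -0.61 for GFP_Barcode_7083. With 1 mouse left out at a time they ranged from -0.45 to 0.33 for GFP_Barcode_69276, -0.51 to 0.40 for GFP_Barcode_7083, -0.89 to 1.21 for GFP_Barcode_3138, -0.29 to 1.30 for GFP_Barcode_52357, -1.33 to 0.53 for GFP_Barcode_618 and -1.45 to 0.54 for GFP_Barcode_117016. Signs of the 4 called barcodes held throughout. Of the other single-barcode values under the alternatives, 475 kept direction and side of the threshold, 24 lost the call and 12 gained it. Depth limits values under 0.735 CPM, or 8.8 CPM in Ptprca mouse 3. The causes of these changes were not tested where none is given.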

Other observations

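The bone marrows also held barcodes that were at 10 CPM or more in exactly 1 mouse, 193 in all. There were 23, 24 and 20 in Ptprca mice 1 to 3 and 45, 50 and 31 in NSG mice 4 to 6, so each NSG mouse had more of its own than any Ptprca mouse. Of these, 21 reached 1000 CPM, 3, 5 and 4 in the Ptprca mice and 5, 3 and 1 in the NSG mice. Larger clones of single mice were thus no more frequent in NSG than in Ptprca.

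GFP_Barcode_15798, chosen after its values were seen, was close to equal among the NSG marrows at 9859, 10210 and 10415 CPM, against 2280, 4019 and 3474 CPM in Ptprca (3.12-fold, log2 difference 1.68, limma adjusted p = 0.261). Its spleen values in NSG were 301, 8207 and 1042 CPM, so the evenness was seen in bone marrow and not in spleen. GFP_Barcode_47711, also chosen in this way, was at 1112, 1269 and 488 CPM in the Ptprca marrows and at 0, 3.11 and 0 CPM in the NSG marrows (limma adjusted p = 0.0619), with 101, 29.7 and 48.9 CPM in the Ptprca spleens and 0 in all NSG spleens.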
